A study of Mus musculus with 4 samples.

Results

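Srrm2 and Acin1 are genes for nuclear proteins rich in arginine and serine. Windows set for them held 59 of the 47777 peaks in an eCLIP list for eIF4A2 from mouse embryonic stem cells. Peaks belong here if their midpoint lies inside a window set for each gene, in the genome build mm9 and counted from 1. The Srrm2 window (chromosome 17, plus strand, 23938000 to 23963000) held 41 peaks. The Acin1 window (chromosome 14, minus strand, 55258000 to 55308000) held 18 peaks. The genes were chosen by the spacing and the log2 folds of these same peaks, as places with dense runs of weak enrichment. Folds and peak spacing are therefore given below as descriptions, without tests.

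In eCLIP, proteins are crosslinked to their RNA in living cells by ultraviolet light, and 1 protein is then pulled down together with the RNA attached to it. The IP group was made of 2 libraries recovered with an antibody against eIF4A2, an RNA helicase closely related to eIF4A1, which unwinds mRNA for translation initiation. The input group was made of 2 libraries of RNA taken before that recovery, and the labels call the 2 of each group biological replicates. Cells of both groups were J1 embryonic stem cells (strain 129S4/SvJae), a single line kept without feeder cells in serum and leukemia inhibitory factor, with no genetic change or drug named. For every peak the authors deposited 1 log2 fold, IP over input, which combines the 4 libraries in a way that the labels do not give. No value per library was available, so the spread between replicates and the depth of the libraries are unknown, and no peak below carries an error.

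SRRM2 is a spliceosome-associated protein and a scaffold of nuclear speckles, the bodies in which splicing factors gather. ACIN1 (acinus) is an RNA-binding member of the ASAP complex, with RNPS1 and SAP18. That complex associates with the exon junction complex left on spliced mRNA, and acinus is also known for its cleavage during apoptosis. Runs of alternating arginine and serine (RS) let such proteins bind one another and are targets of SR protein kinases.

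By codon content both genes were RS-rich, Srrm2 more than Acin1. In the longest coding sequence of each of 21504 genes in the GRCm38 annotation (GENCODE M21), neighbouring pairs of an arginine and a serine codon were counted in either order. Srrm2 held 318 such pairs in 2703 codons, the highest count of all, or 11.8 pairs per 100 codons. Acin1 held 44 pairs in 1338 codons, or 3.29 per 100 codons. The median over all genes was 0.727 per 100 codons, and by this density Srrm2 ranked 16 and Acin1 ranked 229. In a list of 24 RS-domain, ASAP and speckle genes, all 24 lay above that median, with a range of 1.16 for Sap18 to 23.5 for Srsf2, an SR splicing factor. Nothing is read from that count, because the list was picked for such genes. Only U2af2 (3.16) and Sap18 lay below Acin1 in it. The stretch of 90 coding bases with the most such pairs is shown for each gene, as an example of these repeats. It was taken from the GENCODE transcripts Srrm2-210 and Acin1-201, 5′ to 3′ along the RNA, with codons of neighbouring arginine and serine in capitals. The Srrm2 stretch lies on the plus strand in exon 11 (GRCm38 chr17:23815983-23816072) and holds 15 pairs, and the Acin1 stretch lies on the minus strand in exon 6 (GRCm38 chr14:54664375-54664464) and holds 13 pairs. No mm9 sequence or annotation was at hand, and no coordinates were converted, so whether a peak covers these bases was not analysed here.
Srrm2-210: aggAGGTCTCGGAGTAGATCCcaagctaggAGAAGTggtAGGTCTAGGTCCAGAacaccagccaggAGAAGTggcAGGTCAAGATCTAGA
Acin1-201: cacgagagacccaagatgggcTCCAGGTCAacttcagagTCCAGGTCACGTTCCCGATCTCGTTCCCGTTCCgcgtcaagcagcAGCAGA

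On Srrm2, eIF4A2 peaks formed 1 long dense stretch with a few peaks on either side of it. Joining peaks whose gap on the strand was at most 1000 bases put 36 of the 41 peaks (87.8%) in a stretch at 23952395 to 23958425. Over its 6.03 kb there were 5.97 peaks per kb, whereas the remaining 18.97 kb of the window held 5 peaks, or 0.264 per kb. Close peaks define a stretch, so its higher density follows from the joining, here and for Acin1 below. Exons and introns of the windows were not told apart. The peaks of the stretch were short, with a median width of 25.5 bases against 51 bases for the other 5. They covered 20.8% of the stretch. For comparison of lengths only, the longest exon of Srrm2-210 in GRCm38 is exon 11, with 6.57 kb, all of it coding, which is 74.1% of the 8.86 kb mRNA. The next longest of its 15 exons has 521 bases. The position of the stretch relative to that exon was not analysed here.

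**Figure D1:**
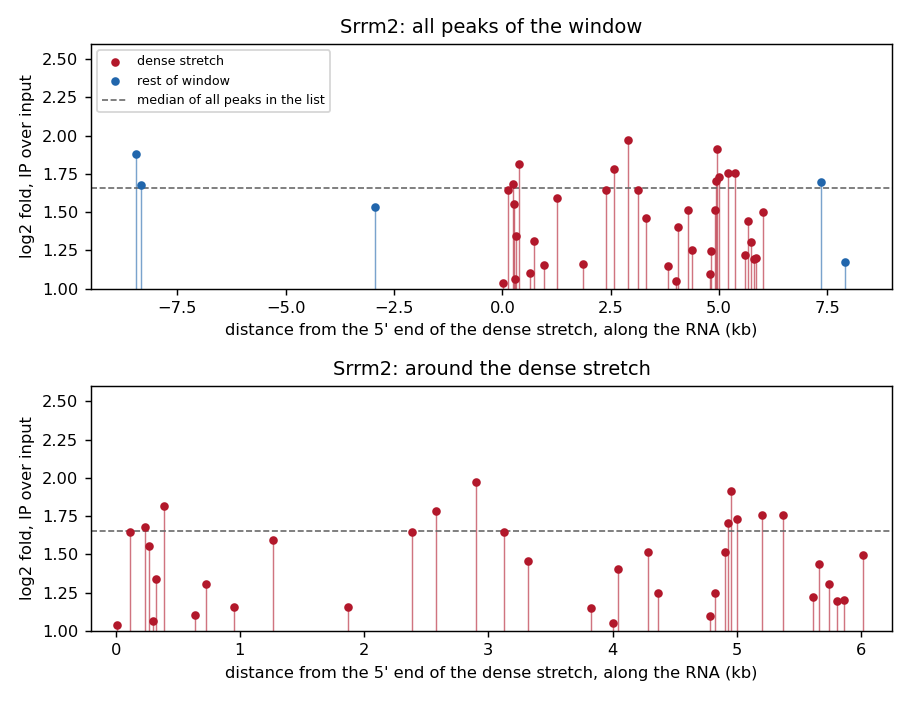
Log2 fold of IP over input (y) for the 41 Srrm2 peaks against distance along the RNA from the 5′ end of the dense stretch in kb (x), over the whole window (top) and the stretch (bottom). Red points are the 36 peaks of the stretch, blue points the 5 peaks outside it, and the dashed line is the list's median of 1.65; the 36 peaks lie between 1.04 and 1.97, most of them under the line.

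Enrichment in the Srrm2 stretch was low. The median log2 fold was 1.45 (2.73-fold), with an interquartile range of 1.20 to 1.65, against 1.68 (3.19-fold) for the 5 peaks elsewhere in the window, a difference of -0.23. Joined at 500 bases instead, the largest stretch held 25 peaks and the difference was -0.086. The log2 folds ran over 1.04 to 1.97 in the stretch and over 1.17 to 1.88 outside it, so the second range lay inside the first. None of the 41 peaks reached a log2 fold of 2 (4-fold), where the share over the whole list is 28.3%. A log2 fold below 1.5 was given for 20 of the 36 peaks in the stretch and for 1 of the 5 outside it, beside 39.0% over the list. Since the gene was chosen for weak peaks, nothing is read from these shares.

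The most enriched Srrm2 peaks lay at several points of the RNA and not at one end. The highest, at 23955279 to 23955317, reached 1.97 on the log2 scale (3.93-fold) and lay 2.9 kb into the stretch. Next came the peak at 23957340 to 23957359 with 1.91, in the 3′ part of the stretch. The peak nearest the 5′ end of the whole window, at 23943921 to 23943971, had 1.88, the third highest, although it lay 8.45 kb before the stretch. The peak at 23952730 to 23952837, near the start of the stretch, had 1.81, and the one at 23954960 to 23954983 had 1.78. The lowest log2 folds were 1.04 at 23952395 to 23952425, which is the first peak of the stretch, 1.05 at 23956387 to 23956402 and 1.06 at 23952682 to 23952703. High and low peaks were thus close neighbours. Spearman's rho between fold and position over the 36 peaks was 0.06, given as a description of peaks that share libraries and gene window. Width told as little about fold, with a rho of -0.07. For Acin1 the rho of fold and width was 0.10 over the 11 peaks of its stretch and 0.48 over all 18.

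Density, in contrast, varied along the Srrm2 stretch. Cut into 3 equal parts of 2010 bases from 5′ to 3′, it held 12, 7 and 17 peaks, which covered 27.7%, 7.36% and 27.3% of their parts. The median log2 folds of these parts were 1.32, 1.64 and 1.44, so the sparse middle had the highest median. Joined at 200 bases, the peaks fell into smaller groups, of which the largest were 10 peaks at 23952395 to 23953354 (50.8% covered, median 1.32), 8 peaks at 23957169 to 23957766 (36.5% covered, median 1.72) and 6 peaks at 23957969 to 23958425 (50.3% covered, median 1.26). These groups differed in fold: the 6 peaks of the last lay between 1.19 and 1.5, and 6 of the 8 in the group before it lay at 1.52 or above.

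Many peaks of the Srrm2 stretch lay next to one another. In it 6 of the 35 gaps were of 0 bases, so that one peak ended where the next began, and 14 gaps were of 50 bases or fewer. In the 6 touching pairs the log2 folds differed by 0.13 to 0.47 (median 0.21), and the 3′ peak was the higher one in 5. The touching pair at 23952626 to 23952678 fell along the RNA, from 1.68 to 1.55. After a gap of 3 bases a chain of touching peaks climbed, with log2 folds of 1.06, 1.34 and 1.81 at 23952682 to 23952837. The widest peak of the gene, 133 bases at 23952967 to 23953099, followed 129 bases later with only 1.10. The next widest were the 108 bases at 23952730 to 23952837 and, both with 69 bases, the peaks at 23957969 to 23958037 (1.22) and at 23959708 to 23959776 (1.7).

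Outside the stretch, Srrm2 peaks came as 2 neighbouring peaks on the 5′ side, 1 isolated peak and 2 peaks on the 3′ side. The 5′ neighbours, at 23943921 to 23943971 and 23944026 to 23944081, had log2 folds of 1.88 and 1.68. The isolated peak at 23949435 to 23949463 had 1.54. The peaks beyond the 3′ end of the stretch had 1.7 at 23959708 to 23959776 and 1.17 at 23960294 to 23960303, the last Srrm2 peak along the RNA. No peak of the opposite strand lay in the window. The nearest peaks of the same strand beyond the window were 66 kb below it (log2 fold 1.64) and 543 kb above it (1.82), so its limits decided no member.

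Acin1 carried fewer and weaker peaks, most of them in the 3′ part of its window. The largest stretch, at 55262832 to 55264581, held 11 of the 18 peaks (61.1%) in 1.75 kb, or 6.29 per kb, against 0.145 per kb over the other 48.25 kb of the window. Its density was thus close to that of the Srrm2 stretch, over a much shorter length. Its peaks covered 17.7% of it and had a median width of 24 bases, against 56 bases for the other 7. A gap of 933 bases split the stretch into 2 peaks at its 5′ end and 9 peaks at 55262832 to 55263587, and 3 further peaks at 55261466 to 55261756 lay 1075 bases beyond its 3′ end, just past the joining distance. In GRCm38 the longest of the 19 exons of Acin1-201 has 1263 bases, shorter than the stretch, and the transcript spans 44.8 kb.

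**Figure D2:**
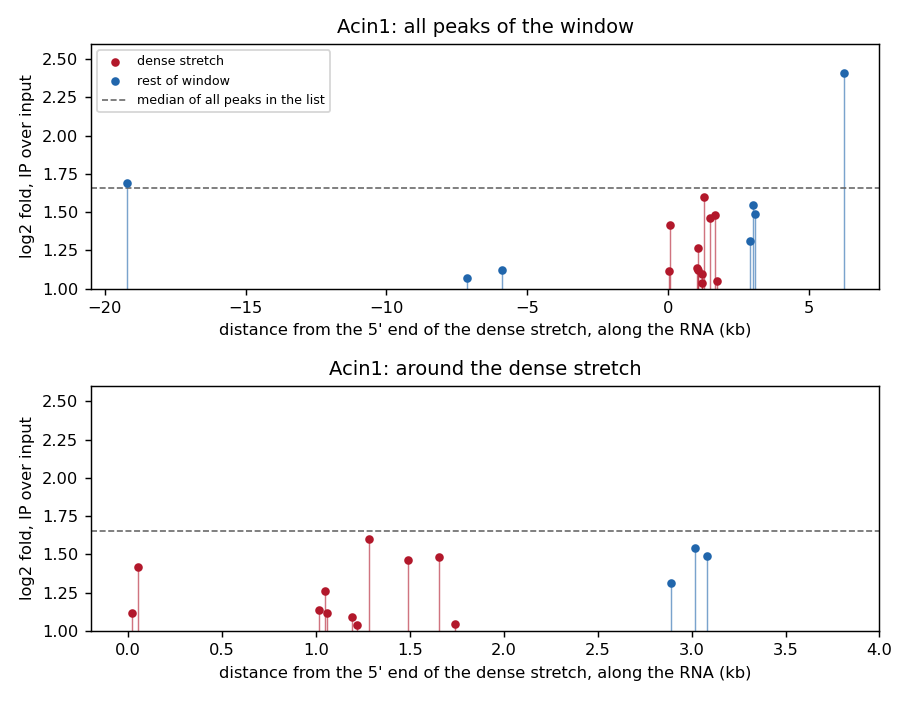
Log2 fold of IP over input (y) for the 18 Acin1 peaks against distance along the RNA from the 5′ end of the dense stretch in kb (x), over all peaks (top) and around the stretch (bottom). Red points are the 11 peaks of the stretch, blue points the 7 outside it, and the dashed line is the list's median of 1.65; all 11 lie under the line, at 1.04 to 1.6, and 1 blue point at the 3′ edge reaches 2.41.

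The Acin1 stretch had the lowest median fold of the 172 stretches of 10 or more peaks in the list. Nothing is read from this rank, because weak folds chose the gene. The next lowest median log2 folds were 1.162 and 1.165. For the 11 Acin1 peaks the median log2 fold was 1.13 (2.19-fold), with an interquartile range of 1.10 to 1.44. It was 1.49 (2.8-fold) for the 7 other peaks of the window, a difference of -0.35. With peaks within 50 bases merged and the highest fold kept, 5 peaks were left in the stretch and the difference was -0.081. Merged in this way, the stretch falls short of the 10 peaks that the ranking required. In 10 of the 11 the log2 fold was below 1.5, and in 4 of the other 7, beside 39.0% over the list, a share from which nothing is read because weak folds chose the gene. All 11 lay below the list's median of 1.65, as did 5 of the other 7. Along the RNA from 5′ to 3′ the 11 log2 folds were 1.11, 1.42, 1.13, 1.26, 1.12, 1.09, 1.04, 1.6, 1.46, 1.48 and 1.05. The middle of that series was low, and 3 peaks in a row near its 3′ end were the highest of the stretch, before a last low one. The highest of them, at 55263285 to 55263313, reached 3.03-fold, and the lowest, at 55263341 to 55263386, reached 2.05-fold only 27 bases away.

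The other Acin1 peaks ranged more widely. Those on the 5′ side were far apart, with log2 folds of 1.69 at 55283761 to 55283816, the first peak along the RNA, 1.07 at 55271719 to 55271736 and 1.12 at 55270483 to 55270513. The group of 3 on the 3′ side included the widest peak of the gene, 127 bases at 55261630 to 55261756 with 1.31, and a touching pair of 65 bases each, with 1.54 and 1.49. This group covered 88.3% of its 291 bases, the highest share among the groups of 3 or more peaks joined at 200 bases in either gene. The touching pairs of Acin1 numbered 4 and differed by 0.05 to 0.14 in log2 fold (median 0.09). Unlike in Srrm2, the 3′ peak was the higher one in 1 of them and the lower one in 3. The last peak along the RNA, at 55258306 to 55258358, stood apart at 2.41 on the log2 scale (5.31-fold), the only one of the 18 to reach 4-fold, where the list's share is again 28.3%. It lay 3107 bases from its nearest neighbour in the window and 331.5 bases inside the window's limit. The peak just outside that limit, at 55255090 to 55255135, had 2.82, and whether either belongs to the Acin1 transcript was not analysed here. Without the peak at the edge the difference between the stretch and the other peaks was -0.27. One peak lay on the opposite strand of the window, at 55305812 to 55305846, whose log2 fold was 2.82.

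The folds can be taken apart further, because they are ratios of whole numbers. After subtraction of 1 constant (0.24 on the log2 scale, the commonest log2 fold less 1), each fold equalled the ratio of whole numbers no larger than 1283, within a relative tolerance of 4e-09. The input term was at most 100 for 99.6% of the 47777 peaks. With the constant moved by 0.001, no peak had a match with an input term up to 100. That shift cannot settle which constant is right. A constant higher or lower by 1 on the log2 scale would also give whole-number ratios, with other terms, and was not tested. The term on top is called the IP term here and the one below it the input term, both after cancelling common factors. If these are read counts, the counts are the terms or multiples of them, but the list does not say that they are, and no interval is drawn from them. Because the terms come from the same folds that picked the genes, they too are a description.

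Srrm2 peaks had weak folds made of large numbers. Their median IP term was 204 and their median input term was 77, against 12 and 4 over the rest of the list. An input term of at least 50 was found for 30 of the 41 Srrm2 peaks, and over the whole list it was found for 2.03% of peaks. The peak at 23952967 to 23953099 had terms of 717 to 394, and its input term ranked 3 in the list. The peak at 23952730 to 23952837 had 709 to 238. Both lie in the 5′ part of the stretch, and among the 100 peaks with the largest input terms 10 were in Srrm2. Large terms were also found outside the stretch, with 328 to 105 for the first peak of the gene and 421 to 153 at 23959708 to 23959776. The smallest terms were 20 to 7, at 23957764 to 23957766, a peak of 3 bases, and 21 to 11 for the last peak. Srrm2 peaks were not wider than others, with a median width of 26 bases against 32 in the rest of the list. Within the stretch, wider peaks had larger IP terms (Spearman's rho 0.60 over 36 peaks, a description). In the Acin1 stretch that rho was -0.15 over 11 peaks.

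**Figure D3:**
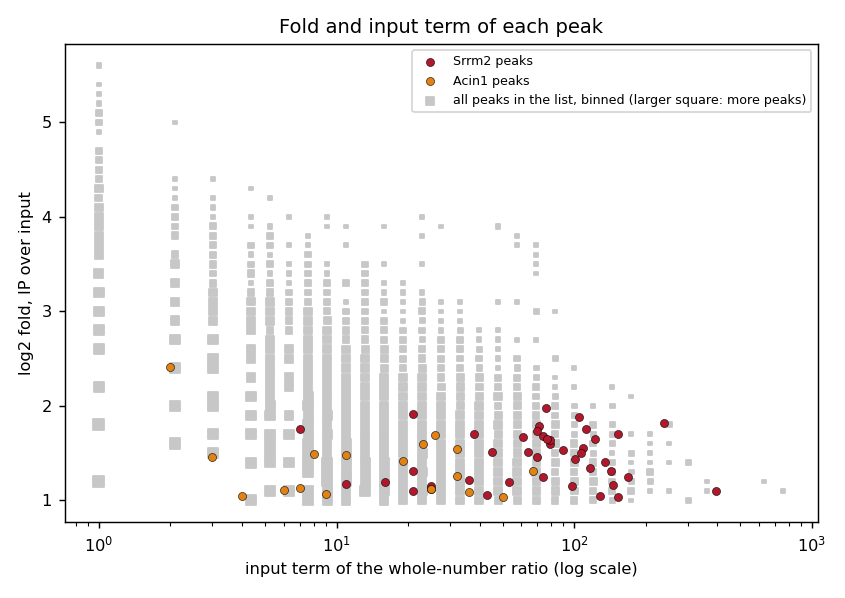
Log2 fold of IP over input (y) against the input term of the whole-number ratio (x, log scale), with Srrm2 peaks in red, Acin1 peaks in orange and the whole list as grey squares that grow with the number of peaks per bin. Srrm2 peaks sit at the right, 30 of 41 at an input term of 50 or more, and the highest folds of the list sit at the left, at input terms of 1 and 2. The input term is the divisor of the fold, so the axes are not independent.

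Median folds in the list were lower where the terms were larger, and most Srrm2 peaks fell in the class with the largest terms. Peaks of the rest of the list with an input term of 1 to 10 had a median log2 fold of 1.74 (36120 peaks), those with 11 to 49 had 1.48 (10662 peaks), and those with 50 or more had 1.39 (936 peaks). In the class of 50 or more, the 30 Srrm2 peaks had a median of 1.53 (interquartile range 1.26 to 1.68), against 1.39 (1.17 to 1.68) for the 936 others. None of those 30 reached 4-fold, against 98 of the 936 (10.5%). The 10 Srrm2 peaks with input terms of 11 to 49 had a median of 1.21, below the 1.48 of that class. The input term is the divisor of the same fold, and the list holds only log2 folds above 1. Fold and class are thus not independent, and nothing is read from these contrasts. Cancelling of common factors also puts some peaks into a lower class than their uncancelled numbers would. Along the stretch the median input term was 119.5, 76 and 53 in its 3 equal parts from 5′ to 3′.

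Acin1 peaks had smaller terms. Their median IP term was 44.5 and their median input term 21, still above the 12 and 4 of the rest of the list, and 2 of the 18 had an input term of at least 50. These were the widest peak, with 141 to 67, and the peak with the lowest fold, with 87 to 50. The peak with the highest fold, at the window's edge, had the smallest input term of the gene, with 9 to 2. The 7 Acin1 peaks with input terms of 1 to 10 had a median log2 fold of 1.13, against 1.74 for that class in the rest of the list. The 9 with input terms of 11 to 49 had a median of 1.42, near the 1.48 of theirs. These class contrasts too set a fold beside its own divisor, and nothing is read from them. The peaks at 55263521 to 55263524 and 55270483 to 55270513 had the same terms, 46 to 25, and so the same fold, although they were 6.96 kb apart and 4 and 31 bases wide.

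Among the stretches of 30 or more peaks, Srrm2 paired low folds with large terms. Of the 172 stretches of 10 or more peaks, 7 held 30 peaks or more, and the Srrm2 stretch ranked 2 in number, tied at 36 with one on chromosome 10 at 80602808 to 80612873. Its median log2 fold of 1.45 was the lowest of these 7, next to 1.52 for the stretch on chromosome 4 at 140258062 to 140266319, and the others ranged from 1.74 to 2.51. Its median input term of 76.5 was the highest of the 7, which otherwise ranged from 7 to 37. Among all 172 it ranked 3 in median input term, tied with a stretch on chromosome 7 at 20281656 to 20283589, and 27 from the lowest in median fold. The other stretches ranked 1 to 5 in median input term had lower median log2 folds than Srrm2. These were 1.31 on chromosome 1 at 72871090 and 1.39 on chromosome 5 at 143666111. On chromosome 7 they were 1.28 at 13614243 and 1.24 at 20281656. Low folds with large terms were thus not particular to Srrm2. The Srrm2 stretch was 1 of 17 without a peak at 4-fold, or 9.88% of the 172, and the Acin1 stretch was another. The Acin1 stretch had a median input term of 19, rank 74 and so near the middle, where the median over the 172 was 16.5.

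**Figure D4:**
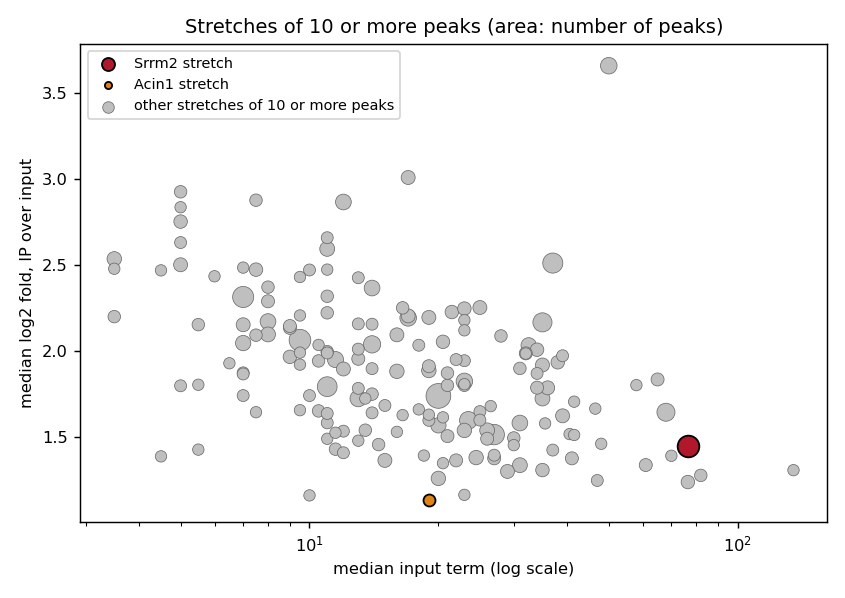
Median log2 fold of IP over input (y) against the median input term (x, log scale) for the 172 stretches of 10 or more peaks, with point area in proportion to the number of peaks. The Srrm2 stretch (red) lies at 76.5 and 1.45, with 36 peaks, and the Acin1 stretch (orange) at 19 and 1.13 is the lowest of all.

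The deposited order of the peaks placed Srrm2 at the very head of its part of the list. The list runs through one chromosome and strand after another, and what sets the order is not stated in the labels. Over the whole list, peaks later in their part had smaller IP terms (Spearman's rho -0.72 over 47777 peaks), were narrower (-0.47) and had lower folds (-0.36), given as descriptions. The plus strand of chromosome 17 has 1262 entries, and the first 8 of them were all Srrm2 peaks. Of the 41 Srrm2 peaks, 40 were among the first 100 entries, with all 36 of the stretch at place 97 or before. The exception was the last peak along the RNA, at 23960294 to 23960303, at place 860. Acin1 peaks were spread more widely over the 788 entries of the minus strand of chromosome 14, from place 27 for the widest peak to place 582, with a median of 146. In the Acin1 stretch the median place was 158, against 77 for the other 7 peaks.

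**Figure D5:**
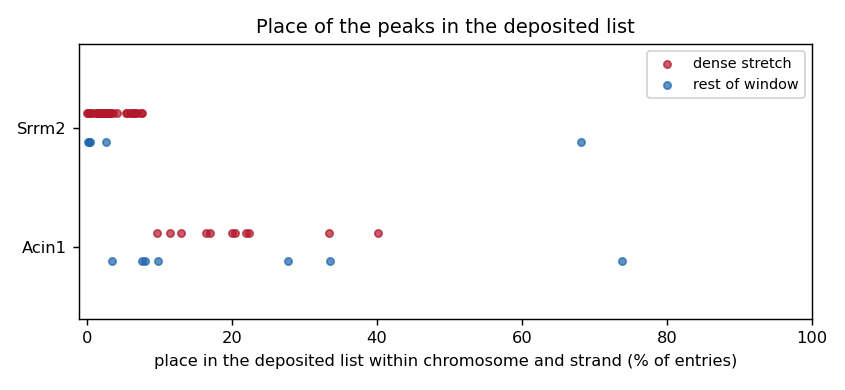
Place of each Srrm2 peak (41, top) and Acin1 peak (18, bottom) in the deposited list, as a percentage of the entries for its chromosome and strand (x), with peaks of the dense stretches in red and the other peaks in blue. All but 1 of the Srrm2 peaks lie within the first 10%, and the Acin1 peaks reach from the first 10% to beyond 70%.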

How the data were processed

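Libraries were made by eCLIP from ultraviolet-crosslinked J1 cells with an antibody against eIF4A2, per the labels' protocols. cutadapt 1.18, STAR 2.6.1b and the build mm9 were used, per the submitters' processing notes. For the peak caller, its filters and the pooling of libraries, no source used here gives details. Values in the deposited list are log2 folds (IP over input), calculated by the authors. Its scale was read from the values, none of which was at or below 1.

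Peaks were assigned by midpoint, starts were counted from 1, and peaks on one strand were joined at gaps of up to 1000 bases. Whole-number ratios were the simplest ones within a relative tolerance of 4e-09. In simulated data for 47777 peaks, 100% of known ratios were recovered. The simulated folds used the same constant and terms below the largest of the list. They check only the search for ratios, not the constant or whether the deposited folds are such ratios. No test was run, since the list has no value per library and peaks are not replicates. Named peaks were the 5 highest and 3 lowest folds, the 3 widest, and the first and last along the RNA for each gene. Further peaks, the input-term limits and the deposited order were chosen after their values were seen. Genes, windows and lists were chosen with earlier results of these data known. Codon pairs were counted in GENCODE M21 transcripts (GRCm38), whose coordinates were not combined with those of the peaks. Peaks of other RS-domain genes were not analysed here. Python 3.11.15, numpy 2.4.6 and pandas 2.3.3 were used.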

Additional observations from a re-analysis of the deposited data

How the results depend on the processing

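Of 45 alternative values, 34 stayed within 1.5 times the reported one and 11 moved further. The differences in log2 fold among them changed sign in 0 cases, and peak counts and input terms have no sign to change. Other ratio tolerances returned the same median input terms, 77 for Srrm2 and 21 for Acin1. Merging peaks within 50 bases left 27 peaks in Srrm2 (22 in its stretch) and 10 in Acin1 (5 in its stretch), and put the Acin1 stretch at -0.081 relative to the rest of its window, against -0.35 as reported, and Acin1 at -0.18 relative to the list, against -0.37. Keeping only 4-fold peaks (log2 of 2) left 0 peaks in Srrm2 and 1 in Acin1. Joining within 200 bases left 10 peaks in the largest Srrm2 stretch. The Srrm2 stretch differed from the rest of its window by -0.086 when joined within 500 bases, against -0.23, and the Acin1 stretch by -0.12 within 2000 bases. A minimum width of 20 bases, windows wider by 5000 bases, weighting by width and other ratio tolerances (the last chosen after seeing the data) moved no value this far from the reported one. The weighted values are differences of means, not of medians. They were -0.27 for Srrm2, where unweighted means differed by -0.15, and -0.28 for Acin1, where unweighted means differed by -0.27. No paired analysis was possible because folds in the list combine all libraries, nor could a replicate be left out. Depth is unknown.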
